A study of Mus musculus with 6 samples.

Results

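The 9 genes described here encode transcription factors that set up the eye and the retinal pigment epithelium (RPE), the pigmented cell layer behind the retina. They are Otx2, Pax6, Sox9, Lhx2, Six3, Rax and Tfec, which act in the optic cup and RPE, and Foxc1 and Foxc2, which act in the mesenchyme around the developing eye. Members were matched by gene symbol, and all 9 were found among the 33924 genes of the table. For 8 of them the current symbol is the one listed, while Tfec stands under its older symbol Tcfec. Total RNA was sequenced from RPE/choroid, the RPE with its underlying vascular layer, taken from eyecups of wild-type C57BL/6J mice once the neural retina had been lifted off. Of the 6 libraries, 3 came from young mice, labelled 1 to 2 months old, and 3 from aged mice, labelled 20 to 24 months in the titles and 22 to 24 months in the time field. All mice carry the label male, although both sexes appear in the methods of the study, which also set the young range later. Each sample held 2 eyes, and no treatment or engineered allele is named for either group.

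The deposited table gives 1 value per gene that belongs to no comparison, the mean of normalized read counts over all 6 libraries of both ages. This mean is the level reported here. No value per mouse was available, so neither a spread nor an aged against young difference was computed, and whether neighbouring genes in any order below differ beyond the variation between mice is unknown. The table gives no read total for any library. The 1338 genes with a mean above 0 and under 0.25 took only 6 distinct values to 4 decimals, from 0.1482 to 0.1996, as single reads in each of 6 libraries would after scaling, and these values spanned 1.347-fold. The genes holding them ranged from 12 to 20803 bases in longest transcript, so the level is a read count that had not been divided by length. Since longer transcripts yield more reads, genes were ranked against each other after dividing the level by the length of the longest annotated transcript in kilobases (level per kb).

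Eye identity is laid down by a small set of DNA-binding proteins. Rax, Six3, Lhx2 and Pax6 mark the eye field and the optic vesicle that grows out of it. Part of that vesicle becomes RPE under Mitf and Otx2, which bind near pigment and visual cycle genes and keep them transcribed, while the remainder becomes neural retina. Most of these factors are reused later in particular retinal cells, so their transcripts in a scraped tissue can come from more than 1 cell type. Periocular mesenchyme, derived largely from neural crest, forms the choroid stroma, the sclera and much of the front of the eye, and Foxc1 and Foxc2 belong to it.

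The labelled tissue was visible in its markers. All 12 RPE genes checked had a level above 0, as did 78.6% of all genes in the table. They ranged from 69.8 for Best1, a chloride channel, to 99322 for Ttr, the carrier of retinol and thyroid hormone. Best1 lay below the median level of 82.1 for genes above 0. Rpe65, the isomerase of the visual cycle, had a level of 43745. Pigment genes were equally plain, with Dct, an enzyme of melanin synthesis, at 89145. In bulk tissue fewer cells of a type and less RNA per cell cannot be told apart, and this holds for every level given here.

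Taken as a group the 9 factors contributed 9039 normalized counts, 0.0471% of the summed level of all genes. Levels ran from 74.4 for Tfec to 3848 for Otx2. Otx2 alone made up 42.6% of the group's reads, Pax6 21.2% and Foxc1 18.6%, shares that longer transcripts raise. Per kb the median of genes with a length and a level above 0 was 46.2, and 7 of the 9 members lay above it. Otx2, Pax6 and Foxc1 also lay above the upper quartile of 208 per kb, and Foxc2 and Tfec lay below the median.

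**Figure D1:**
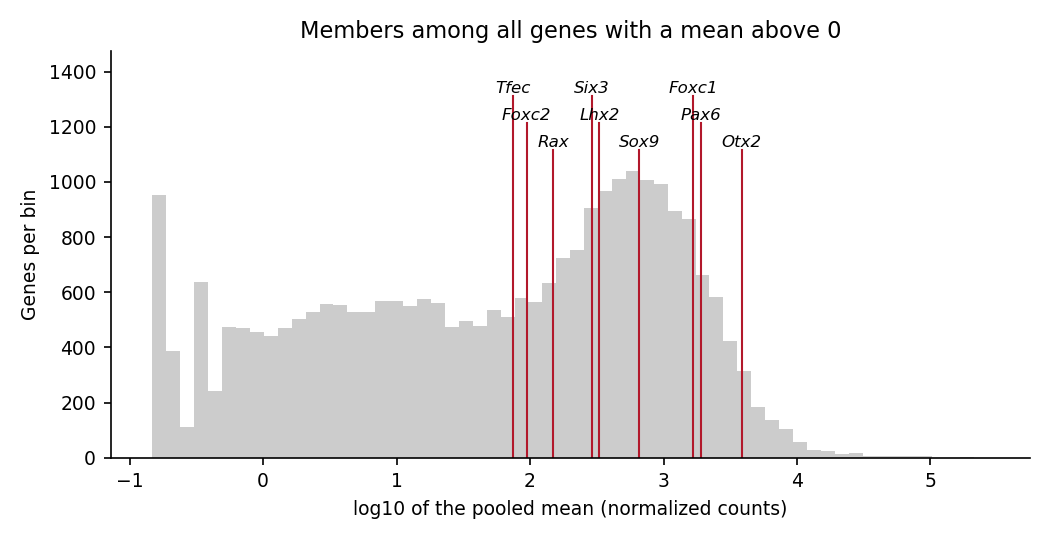
Grey bars count genes by log10 of the pooled mean of normalized counts, for the 26681 genes with a mean above 0, and red lines mark the 9 transcription factors, without division by length. Otx2 stands far to the right at 3848, and Tfec lies lowest at 74.4.

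Otx2, a paired-like homeodomain factor needed for RPE differentiation and for photoreceptor and bipolar cells, led the group. It lies on the minus strand of chromosome 14 (ENSMUSG00000021848, GRCm38 chr14:48657677-48673819) and has 11 annotated transcripts. Its level was 3848, and its level per kb of 1485 exceeded that of 97.4% of genes with a length and a level above 0. Per kb Otx2 stood 3.43-fold above Pax6, the next member, and 67.5-fold above Tfec, the last by this length. RefSeq gives Otx2 4 promoter windows, each reaching from 250 bases before an annotated start to 50 bases after it. The first window held CATGTG, the E-box core bound by Mitf and its relatives, and the third held TAATCC, the core bound by Otx2 and Crx. Of all RefSeq windows, 14.2% hold CATGTG and 7.06% hold TAATCC. Both 30-base stretches are shown on the plus strand of GRCm38.p6 with the motif in capitals, because they place the letters of both factor families beside the most abundant member.
Otx2, chr14:48667751-48667780 (+): tatgggcccaagCATGTGaactaattgtat
Otx2, chr14:48665303-48665332 (+): aaactaacgagaTAATCCgaggggcacacg

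Pax6, the paired-domain and homeodomain factor often described as the master regulator of eye development, had a level of 1915 and a level per kb of 433. The gene lies on the plus strand of chromosome 2 (ENSMUSG00000027168, chr2:105668900-105697364). In the adult eye it remains active in amacrine and ganglion neurons, the lens, the ciliary body and iris. Per kb it passed 87.7% of genes. Pax6 has 26 annotated transcripts, the most of any member, and its value per kb rose to 1402 when the median transcript length was used.

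Sox9, an HMG-box factor of RPE and Mueller glia that acts with Mitf and Otx2 on visual cycle and channel genes, had a level of 659 and a level per kb of 159. It sits on the plus strand of chromosome 11 (ENSMUSG00000000567, chr11:112782224-112787760) and has 1 annotated transcript. Lhx2, a LIM homeodomain factor of the optic vesicle and of Mueller glia, had a level of 331 and a level per kb of 117 (ENSMUSG00000000247, chr2:38339281-38369733). Per kb Sox9 and Lhx2 exceeded 69.8% and 64.1% of genes.

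Six3 and Rax, both homeodomain factors of the eye field, were lower again. Six3 lies on chromosome 17 (ENSMUSG00000038805, chr17:85613608-85629302), with a level of 291 and a level per kb of 79.2. Rax, which is also used in retinal progenitors and Mueller glia, lies on chromosome 18 (ENSMUSG00000024518, chr18:65928277-65939787), with a level of 149 and a level per kb of 52.2. Both stayed above the median of 46.2 per kb for all genes with a length and a level above 0. By level among protein-coding genes they stood below the median, Six3 at the percentile 48.0 and Rax at 37.5, and among genes with a level of at least 10 they stood at 45.7 and 33.8.

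Foxc1 and Foxc2 are forkhead factors that pattern the periocular mesenchyme and the vessels arising in it. Foxc1 is a single-exon gene model with 1 annotated transcript on chromosome 13 (ENSMUSG00000050295, chr13:31806633-31812476). Its level of 1677 and its level per kb of 287 placed it behind only Otx2 and Pax6. Foxc2 lies on chromosome 8 (ENSMUSG00000046714, chr8:121116171-121118895) and had a level of 94.2 and a level per kb of 34.6. Per kb the former exceeded the latter 8.30-fold, and 15.9-fold when coding length was used.

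Tfec was last by level and per kb of the longest transcript. It encodes a basic helix-loop-helix factor of the family of Mitf, known from RPE and macrophages, and lies on the minus strand of chromosome 6 (ENSMUSG00000029553, chr6:16833373-16898441). Its level was 74.4, and its level per kb of 22.0 lay below the median. RefSeq holds 1 promoter window for Tfec. Its GC content of 40.3% was below the median of 52.7% over all 32851 RefSeq windows, and its CpG ratio, observed over the number its base content predicts, was 0.246 against a median of 0.384. Every other member window had a CpG ratio of at least 0.463. The 250 bases before the start are shown on the minus strand of GRCm38.p6, because this window has the lowest CpG ratio of the 11 member windows.
Tfec, chr6:16898442-16898691 (-): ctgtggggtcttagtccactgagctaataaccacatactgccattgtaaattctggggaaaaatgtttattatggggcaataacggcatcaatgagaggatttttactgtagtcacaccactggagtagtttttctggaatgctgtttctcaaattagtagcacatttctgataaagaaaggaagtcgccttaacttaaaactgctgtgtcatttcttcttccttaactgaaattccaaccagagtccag

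**Figure D2:**
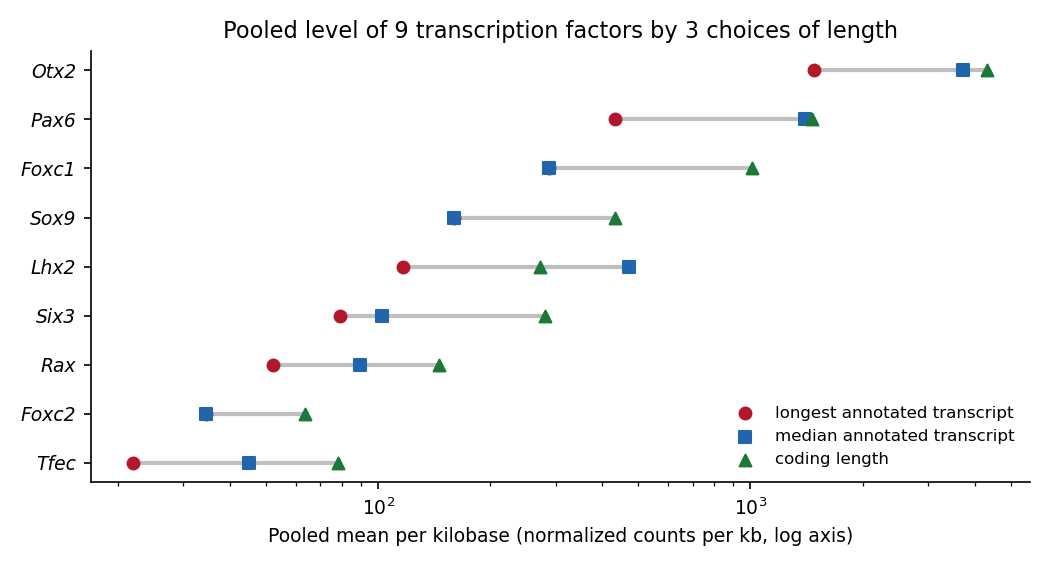
The horizontal log axis gives the pooled mean per kilobase for each of the 9 factors, with circles for the longest annotated transcript, squares for the median transcript and triangles for the coding length. Otx2 is highest and Pax6 next by every length, while Lhx2 moves from 117 to 472 between the longest and the median transcript.

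The order of the 9 was the same by level and per kb of the longest transcript. With the coding length Six3, at 279.9 per kb, passed Lhx2, at 272, and Tfec, at 78.2, passed Foxc2, at 63.5. With the median transcript length Lhx2 reached 472 per kb and ranked after Pax6, and Tfec, at 45.0, again passed Foxc2, at 34.6. Otx2 and Pax6 kept the first 2 places by all 3 lengths, and Otx2 exceeded Tfec 55.2-fold by coding length and 82.8-fold by median length. Which transcript each gene uses in this tissue was not tested.

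Closely related genes placed these levels in context. In 4 of 7 families a member had the highest level per kb, and this count was the same with the coding length. The FoxC family holds only Foxc1 and Foxc2, both members, so a member led it by construction. The Pax comparison held only Pax6 and Pax2. Within the Otx family Otx2, at 1485 per kb, stood 1.92-fold above Crx, the cone-rod homeobox factor of photoreceptors, and 212-fold above Otx1, whose level was 36.9. The ratio of Otx2 to Otx1 was 282 by median transcript length and 125 by coding length. Pax2, the optic stalk counterpart of Pax6, had a level of only 1.95. Lhx2 exceeded Lhx6, the next of the Lhx genes, 7.34-fold, and Lhx5 and Lhx8 were listed at 0. By median transcript length Lhx2 exceeded Lhx6 27.2-fold, and by coding length 5.78-fold. Foxc1 led the FoxC pair.

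Elsewhere the member was not first. Mitf, the central pigment cell factor, led its family at 969 per kb, followed by Tfeb at 249 and Tfe3 at 68.7, both regulators of lysosome genes. Tfec was last, 44.1-fold below Mitf and 3.12-fold below Tfe3. Otx2 stood 1.53-fold above Mitf, its partner in RPE specification. In the SoxE family Sox10, a neural crest and melanocyte factor, exceeded Sox9 2.50-fold, and Sox9 exceeded Sox8 7.70-fold. The ratio of Sox9 to Sox8 was 2.38 by median transcript length and 9.71 by coding length. Six3 stood 1.06-fold above its relative Six5 by the longest transcript and 2.68-fold by coding length, and such near values carry no error estimate.

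**Figure D3:**
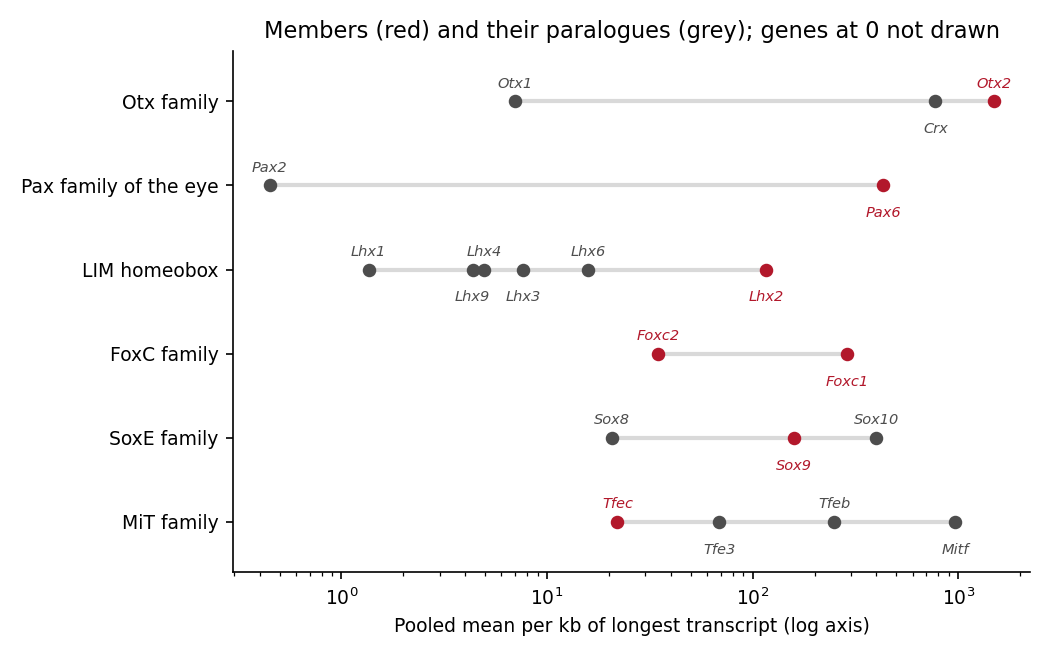
Each row is 1 of 6 of the 7 gene families, that of Six3 not being drawn, each point a gene, and the horizontal log axis is the pooled mean per kb of the longest transcript, with members in red and genes at 0 not drawn. Otx2, Pax6, Lhx2 and Foxc1 are at the right end of their rows, and Tfec is at the left end of its row, below Tfe3, Tfeb and Mitf.

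Further factors of the same tissues were checked. All 11 optic cup and retinal factors had a level above 0, as did 78.6% of all genes in the table, and Vax1 was at 3.00, below the lower quartile of 4.05 for genes above 0. Hes1, the Notch effector, led them at 634 per kb and Nr2f2, an orphan nuclear receptor, had 231. All 15 periocular mesenchyme factors checked were above 0 as well. Per kb Foxc1 came between Eya2 at 290 and Prrx1 at 275. By coding length Prrx1 passed Foxc1, their ratio turning from 1.04 to 0.414.

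Some levels rest on reads that could belong to an overlapping gene. The kit kept strand, but the sources used here do not state whether counting used it. Six3os1, an RNA transcribed opposite to Six3, had a level of 1208, and per kb it stood 2.72-fold above Six3 itself. Shared exon bases made up 1.95% of those of Six3. Raxos1, opposite to Rax, had a level of 64.9, and the 1604 exon bases that both annotations cover are 27.4% of those of Rax. Pax6os1, at 68.7, shares 0 exon bases with Pax6. Otx2 shares 154 exon bases (3.65%) with Otx2os1 on the opposite strand and 168 (3.98%) with Gm49154 on its own. Six3 shares 3.08% with Gm28528. These 3 genes were looked up by symbol, and no level was found for them. The overlapping genes named in this paragraph were chosen after the values were seen. When the members' transcripts were cut into words of 31 bases, 26.4% of those of Rax recurred in another gene on either strand, most often in Raxos1, and 0.677% on the same strand. The share on either strand was 3.94% or less in the other members.

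Markers of retinal cells were measured in the same RNA. All 13 rod and cone genes had a level above 0, as did 78.6% of all genes in the table, and their summed level was 115555. Otx2 and its paralogue Crx are transcribed in photoreceptors as well. The 8 Mueller glia genes summed to 114965, and to 84903 without Rlbp1, also an RPE gene. Most of that sum came from genes that many cells transcribe, such as Glul at 28609 and Clu at 22596, while the more restricted Slc1a3 and Aqp4 were at 1136 and 812. Summed levels were 11629 over 6 bipolar genes, of which Trpm1, also a melanocyte gene, gave 9212 and the others 2417, and 4806 over 10 amacrine and ganglion genes. The part of these cell types in the members' levels was not tested.

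Stromal and vascular markers were also measured, beside Foxc1 and Foxc2. Fibroblast and pericyte genes summed to 169140 over 8 genes, endothelial genes to 20869 over 7, melanocyte genes to 88962 over 7, and macrophage genes to 15393 over 6. Without Pmel, which with Mlana is also in the pigment list and made by RPE, the melanocyte sum was 31298. Skeletal muscle genes, 4 in number, summed to 93624. Lens genes summed to 4583 and ciliary body and iris genes to 15581, over 6 each. No marker list held a gene at 0, and 78.6% of all genes in the table were above 0. None of these sums divides a member's reads among cell types.

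**Figure D4:**
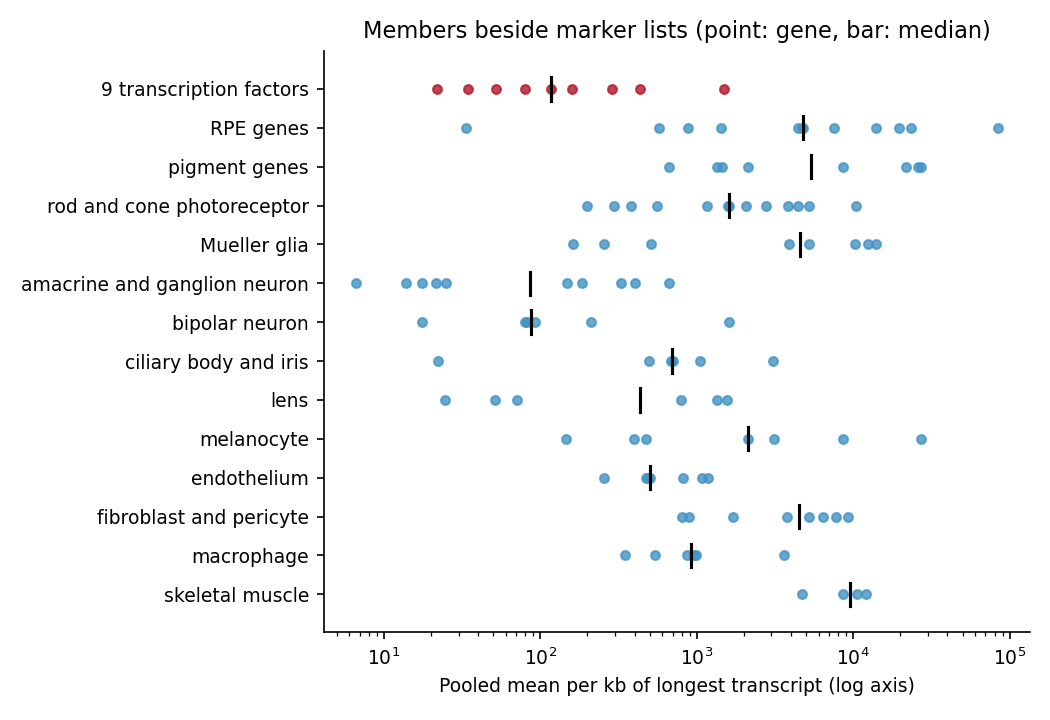
Each point is a gene, each row a list and each black bar the median of its row, on a log axis of pooled mean per kb of the longest transcript. The median of the 9 factors, 117, lies to the left of the medians of the RPE genes, 4755, and of the pigment genes, 5384, while single genes overlap, with Otx2 to the right of 4 RPE and 3 pigment genes.

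Most RPE and pigment genes had far higher levels per kb than the factors. Per kb Rpe65 exceeded Otx2 15.8-fold by the longest transcript and 6.33-fold by coding length. Of the 12 RPE genes 8 stood above Otx2 per kb and 11 above Pax6. Best1, the exception, had 33.6 per kb, close to Foxc2 at 34.6. Among 8 pigment genes 5 exceeded Otx2 and 8 exceeded Pax6.

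Binding-site letters were then searched in promoter windows of these targets on both strands. Windows were held for 15 of 20 target genes (18 windows) and for 6 members (11 windows), namely Otx2, Pax6, Lhx2, Six3, Foxc1 and Tfec. CATGTG occurred in 7 of 18 target windows (38.9%), in 1 of 11 member windows (9.09%) and in 14.2% of all 32851 windows. TAATCC occurred in 5 of 18 target windows (27.8%), in 1 of 11 member windows (9.09%) and in 7.06% of all. CACGTG, the other E-box of the Mitf family, was in 0 target windows and in 7.15% of all windows. TAATTA, a core of many homeodomains, was in 2 of 11 member windows, both of Otx2, and in 5.29% of all. GTAAACA, the forkhead core, was in 0 member windows, 1 target window and 3.65% of all. The SOX core ACAAAG was in 1 member window, of Pax6, in 7 of 18 target windows (38.9%) and in 18.7% of all. ACAATG, another SOX core, was in 1 member window, of Tfec, in 2 target windows and in 12.6% of all. A match is a description of letters and not a bound site, and these target lists hold few windows.

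Sites of target genes are given here so that they can be set beside those of Otx2 above, with coordinates of GRCm38.p6, the strand shown and the motif in capitals. CATGTG began 21 bases before the start of Tyr (tyrosinase), 46 before that of Tyrp1 and 150 before that of Dct, the 3 enzymes of melanin synthesis. At these 3 positions it lay inside the 10-base run gtCATGTGct, which 0.186% of all windows hold. The other CATGTG of Dct, 232 bases before its start, and those of Rpe65, Rlbp1, Rgr, Oca2 and Otx2 lay outside such a run. This run was looked for after the sites had been seen. The TAATCC site began 42 bases before the start of Rpe65 and 167 before that of Rgr, a retinal G protein-coupled receptor of the RPE.
Tyr, chr7:87493516-87493545 (-): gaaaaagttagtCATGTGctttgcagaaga
Tyrp1, chr4:80834155-80834184 (+): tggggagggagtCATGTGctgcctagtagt
Dct, chr14:118052379-118052408 (-): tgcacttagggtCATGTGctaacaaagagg
Rpe65, chr3:159599127-159599156 (-): ttgtatgcaatcTAATCCttattggaggag
Rgr, chr14:37049164-37049193 (-): gatccaagacctTAATCCtgcctagtgggc

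**Figure D5:**
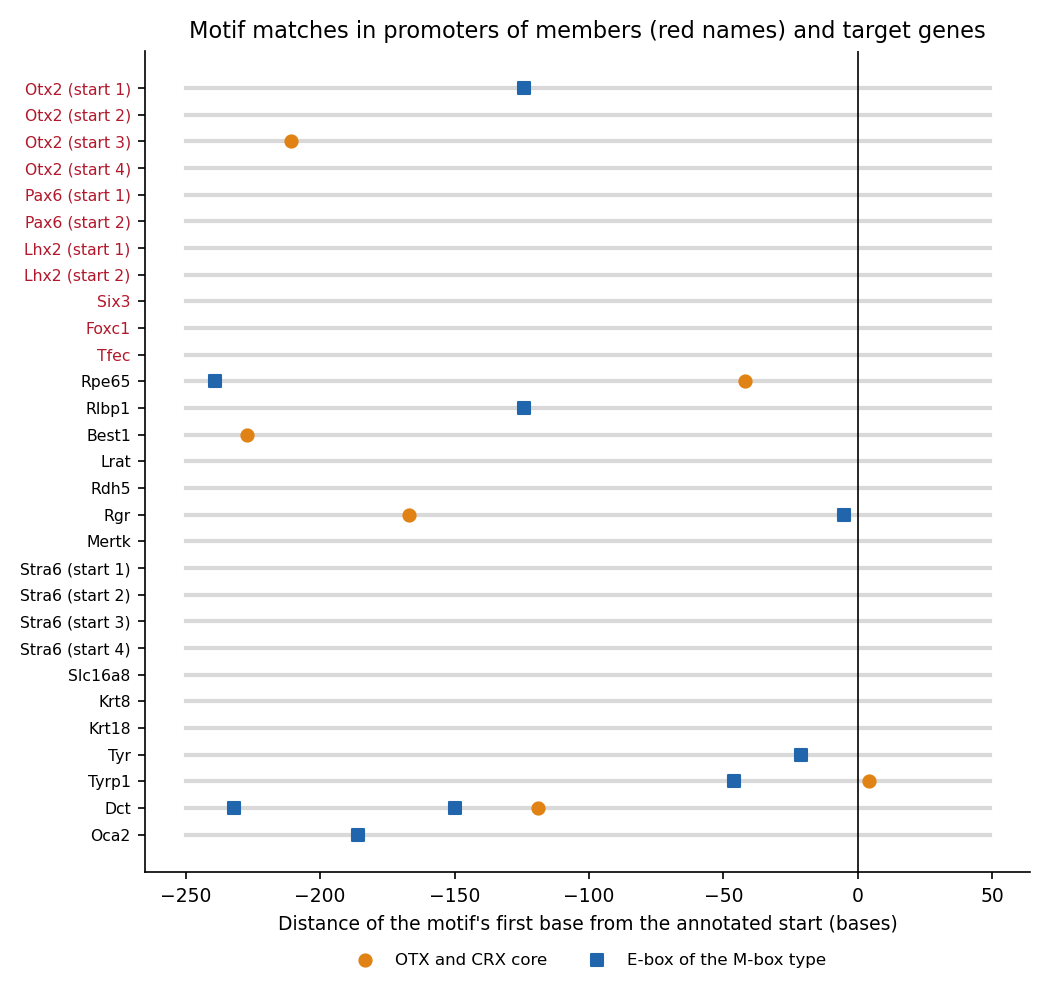
Each grey line is a promoter window from 250 bases before to 50 bases after an annotated start, and marks show where TAATCC (orange circles, the OTX and CRX core) and CATGTG (blue squares, the M-box core) begin. Marks are seen in 2 of the 11 windows of the factors, both of Otx2, and in the windows of Rpe65, Rlbp1, Best1, Rgr, Tyr, Tyrp1, Dct and Oca2.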

How the data were processed

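The authors trimmed reads with BBDuk, mapped read pairs by STAR against an Ensembl GRCm38 transcript annotation, quantified TPM with Sailfish, converted these to normalized counts by the total count method and compared the ages with DESeq2. Versions are not given in the sources used here for STAR and DESeq2. The deposited table holds 1 row per gene. Its mean of normalized counts is a signal that the authors averaged over all 6 libraries. It is the only column used, with no SD and no n. It held 0 columns that name a sample, and its 5 columns of the authors' own comparison (fold change, standard error, Wald score, p-value and adjusted p-value) were not used. An aged against young test was therefore not run.

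Levels were divided by GENCODE M21 transcript lengths (longest, or as alternatives median and coding length). Older symbols were matched through RefSeq synonyms, which gave 6 of 150 listed genes. Promoter windows came from RefSeq (GRCm38.p6). Python 3.11.15, pandas 2.3.3 and numpy 2.4.6 were used, and the percentile, exon overlap, motif and CpG functions were checked on small constructed cases with known answers. All 9 members, their families and the marker lists were eligible to be named whatever their values, and some listed genes are not reported here. Members and lists were chosen with earlier results of these data known. No p-value was computed.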

Additional observations from a re-analysis of the deposited data

How the results depend on the processing

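No paired analysis was possible because the column used is a mean over all mice, so leaving out a replicate, the replicate block, edgeR, limma and other size factors were not run, and with no counts per library no precision can be given. The median percentile of the 9 factors was 65.3 among genes above 0, 48.5 among genes of at least 10, 72.7 among all genes, 50.6 among protein-coding genes (by the GENCODE type, in place of the planned protein table) and 64.1 per length. Their median level per kb moved from 117 to 279.9 with the coding length and 159 with the median transcript. Their median level, 17.2 after scaling the summed level to 1000000, became 18.5 without the 10 most abundant genes. The median summed level of the marker lists fell from 20869 to 14491 without the highest gene of each list. The count of 4 families led by a member was the same with the coding length. FoxC, which holds only members, counts among them whatever the length. Of the values of single members under alternatives, 51 moved and 3 did not. These shifts follow from the scale or length used. Protein identity between members was not run.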
